A study of Mus musculus with 12 samples.

Results

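The comparison described here sets 3 libraries of treated germinal center B cells against 6 libraries of control cells, 9 of the 12 libraries of the series. The cells were sorted from the spleens of NZBWF1/J mice, a hybrid strain that develops a disease like human lupus. Treated mice received 6 doses each of 200 ug CTLA4-Ig and 250 ug anti-CD40L within 2 weeks from the age of 18 weeks (named Double in the titles), and control mice were untreated; no age is given for the controls. Both kinds of mice gave dark zone and light zone cells, 1000 sorted cells a library, with 3 libraries in each of the 4 groups of the series. The treated libraries kept are dark zone replicate 3 and light zone replicates 1 and 3, and the controls are the 3 dark zone and 3 light zone libraries. The other 3 treated libraries (dark zone replicates 1 and 2 and light zone replicate 2) were left out. They were selected on measured expression: they had counts for 12188 to 12195 of the 12212 gene symbols, against 11384 to 11960 in the 9 libraries, and in a principal component analysis of all 12 libraries they had scores of 146 to 165 on the leading axis (30.3% of the variance), against -103 to 20.4. All p-values below are conditional on that choice and describe these 9 libraries. The labels do not say whether the replicates come from separate mice, so the p-values measure the spread between libraries, which may be technical.

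A germinal center is the site in a lymphoid follicle where activated B cells mutate their antibody genes and are selected. In the dark zone the cells divide and mutate; in the light zone they take up antigen, show it to T follicular helper cells on MHC class II, and receive help through CD40 and cytokine receptors. CTLA4-Ig binds CD80 and CD86 and so blocks the CD28 signal to T cells, and anti-CD40L blocks the ligand of CD40. IRF4 is a transcription factor that CD40 and B cell receptor signals induce in selected light zone cells and that is needed for plasma cells. SIAH2 is a RING ubiquitin ligase of the hypoxia response, TRIM33 is a chromatin reader and ubiquitin ligase of the TRIM family, and Ifi27l2a encodes a small mitochondrial protein induced by type I interferon. These 4 genes were chosen from results of the same contrast, so their values are a description and support nothing beyond it.

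The 9 libraries held 16032746 to 26508527 counts, and 3 counts, the upper limit that a count of 0 allows, corresponded to 0.113 to 0.187 CPM by library total. This floor covers counting error only, since the reads carry no molecular identifiers. CPM, the usual unit of counts scaled to the library total, are given below with TMM factors. For the 3 libraries left out, these factors came from all 12 libraries and the values were then brought to the scale of the 9. The germinal center gene Fas (134 to 230 CPM in controls, 123 to 236 CPM in the treated libraries kept) and the B cell gene Cd79a (1970 to 2860 and 2460 to 2940 CPM) were present in every library. Among the 9 libraries, light zone treated replicate 3 lay farthest out on the first principal component (at 173; 16.8% of the variance), and light zone treated replicate 1 on the second (at -129; 14.6%).

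Of 12017 genes tested with zone as a covariate (edgeR quasi-likelihood test, Benjamini-Hochberg adjustment), none passed an adjusted p of 0.05, a share of 0.0%; the smallest adjusted p was 0.466. At an unadjusted p of 0.05 there were 388 genes higher in treated cells (3.23%) and 508 lower (4.23%). DESeq2 on the same libraries called 296 of the 11052 genes to which it gave an adjusted p (2.68%), 101 higher and 195 lower, and limma-voom with library weights called 0. In 500 genes (4.16%) every treated library kept lay above all 3 controls of its own zone, and in 460 (3.83%) below them. These counts rest on few libraries, and leaving 1 out loosens the requirement, so that a rise follows from the definition. Without light zone treated replicate 1 they were 1148 and 1082, without light zone treated replicate 3 943 and 841, and without light zone control replicate 3 the lower count was 827. Without dark zone treated replicate 3, where only the light zone was compared, they were 1320 and 1349. All statements of higher and lower below refer to differences that did not pass the edgeR test; where DESeq2 gave a gene named below an adjusted p under 0.05, it is printed.

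Siah2 had 33.2, 27.1 and 42.9 CPM in the dark zone controls and 82.1 CPM in the dark zone treated library. It had 35.9, 35.2 and 39.9 CPM in the light zone controls and 143 and 102 CPM in the light zone treated libraries. Every treated library lay above every control, and the log2 difference was 1.55 (SE 0.25). The adjusted p was 0.466 in edgeR (unadjusted p = 0.000264) and 3.44e-07 in DESeq2. The 3 libraries left out held 83.0, 96.5 and 143 CPM, also above every control, and the fit on all 12 libraries gave 1.56 (SE 0.22). The gene spans chr3:58674938-58692400 in mm10.

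Ifi27l2a (chr12:103442167-103443680) had 545, 647 and 400 CPM in the dark zone controls against 213 CPM in the treated library. In the light zone it had 480, 332 and 397 CPM in controls and 228 and 143 CPM in treated cells. The groups did not overlap, and the log2 difference was -1.19 (SE 0.23; unadjusted p = 0.000915, adjusted p = 0.489 in edgeR and 0.000194 in DESeq2). The libraries left out were lower still, at 74.0 to 114 CPM, and all 12 libraries gave -1.70 (SE 0.32).

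Trim33 (chr3:103279293-103358775) had 74.2, 55.5 and 57.4 CPM in the dark zone controls and 25.2 CPM in the treated library, and 58.6, 113 and 65.5 CPM in the light zone controls against 30.2 and 18.9 CPM. Again every treated library was below every control. The log2 difference was -1.53 (SE 0.34; unadjusted p = 0.00187, adjusted p = 0.0004 in DESeq2), the libraries left out held 23.3 to 32.6 CPM, and all 12 libraries gave -1.45 (SE 0.27).

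Irf4 (chr13:30749226-30766976) was lower in the light zone treated libraries kept, and its groups overlapped in the dark zone. In the light zone controls it had 49.1, 35.1 and 15.9 CPM, and in the light zone treated libraries 0.319 and 0.185 CPM, close to the 3-count floor. In the dark zone the level was low in both groups, with 0.243, 0 and 3.76 CPM in controls and 0.179 CPM in the treated library, so the dark zone groups overlapped. The log2 difference over both zones was -5.08 (SE 2.01; unadjusted p = 0.0357, adjusted p = 0.0198 in DESeq2), and the treatment by zone interaction had an unadjusted p of 0.199 in edgeR. The light zone library left out held 23.6 CPM, inside the light zone control range, and the dark zone libraries left out held 6.02 and 7.08 CPM. With all 12 libraries the difference was -0.19 (SE 1.74).

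**Figure D1:**
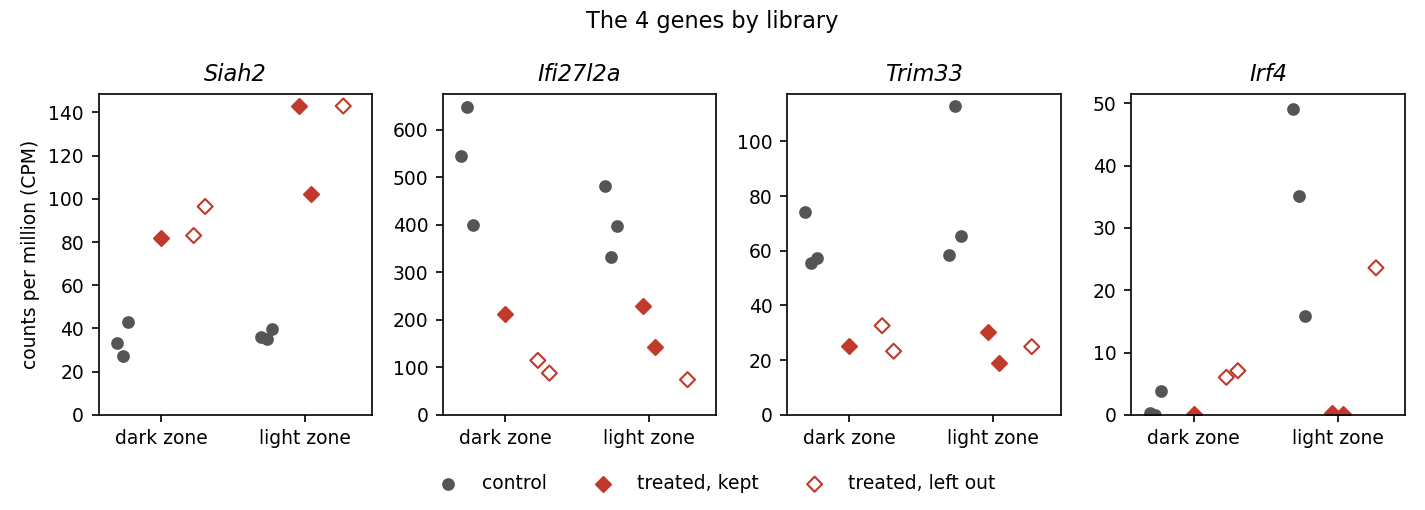
Level of Siah2, Ifi27l2a, Trim33 and Irf4 in CPM in each library, by zone. Grey circles are controls, filled diamonds the 3 treated libraries kept and open diamonds the 3 left out. For Siah2, Ifi27l2a and Trim33 all diamonds lie on one side of all circles, whereas for Irf4 the light zone library left out lies among the controls.

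Of the relatives described next, Ifi27 and Irf1 were lower in every treated library kept than in any control, and Siah1a, Siah1b, Trim24, Trim28 and Irf8 overlapped with the controls. Siah1a, a paralog of Siah2, had 4.97 to 34.8 CPM in controls and 29.8 to 49.7 in treated cells (log2 difference 1.19, SE 0.57, unadjusted p = 0.0721), and Siah1b had -0.63 (SE 2.05). Trim24 and Trim28, which with Trim33 form the TIF1 group of TRIM proteins, had -1.23 (SE 1.02) and -0.38 (SE 1.07). Ifi27, the neighbour and relative of Ifi27l2a on chromosome 12, had 69.8 to 181 CPM in controls and 23.7, 52.7 and 42.5 CPM in treated cells, below every control (log2 difference -1.51, SE 0.43, adjusted p = 0.0141 in DESeq2). Reads shared between Ifi27 and Ifi27l2a, which are similar in sequence, could be split between them. Irf8, which acts in germinal center B cells opposite to Irf4, had a log2 difference of -0.03 (SE 0.26). Irf1, an interferon-induced relative of Irf4, had 24.9 to 58.7 CPM in controls and 17.2, 1.49 and 8.99 CPM in treated cells (-2.01, SE 0.75, unadjusted p = 0.0274).

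Beside Siah2, the 11 genes with the smallest p among those at least 2-fold higher with a mean of at least 10 CPM were Ift172, Orc5, Ccnb1, Brd1, Psmc2, Ackr2, Zdhhc9, Gcfc2, Rfx2, Ska3 and Traf5. Orc5 is a subunit of the origin recognition complex, Ccnb1 encodes cyclin B1, which drives entry into mitosis with CDK1, and Ska3 is part of the complex that ties kinetochores to microtubules. Orc5 had 27.5, 34.2 and 63.7 CPM in dark zone controls against 150 CPM, and 14.3, 28.7 and 29.5 CPM in light zone controls against 83.7 and 83.1 CPM. Ccnb1 had 274, 249 and 481 CPM in dark zone controls against 656 CPM, and 209, 182 and 224 CPM in light zone controls against 495 and 434 CPM. In both genes each treated library exceeded the controls of its zone, with log2 differences of 1.81 (SE 0.35) for Orc5 and 1.10 (SE 0.22) for Ccnb1. DESeq2 gave all 11 genes an adjusted p under its threshold: 6.21e-07 for Ift172, 0.000296 for Orc5, 0.00133 for Ccnb1, 0.000174 for Brd1, 0.00271 for Psmc2, 0.000153 for Ackr2, 0.000169 for Zdhhc9, 0.00162 for Gcfc2, 0.00219 for Rfx2, 0.000393 for Ska3 and 0.00164 for Traf5. In the libraries left out, Orc5 had 12.02 to 16.9 CPM and Ccnb1 74.6 to 315 CPM, neither above the controls of its zone. Psmc2, Zdhhc9, Rfx2 and Ska3 overlapped with the controls there. Ift172, Gcfc2, Ackr2, Brd1 and Traf5 lay above every control in all libraries left out. Ift172 had 3.785 to 6.367 CPM there (controls at most 2.557) and Gcfc2 8.747 to 10.98 CPM (controls at most 2.878).

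Traf5, an adaptor of CD40 and other TNF receptors, had 34.6, 11.3 and 37.8 CPM in dark zone controls against 114 CPM, and 6.99, 3.28 and 15.2 CPM in light zone controls against 66.9 and 57.2 CPM (log2 difference 2.57, SE 0.57). The libraries left out lay between, at 46.1 to 60.7 CPM. Brd1, a reader of histone marks, had 0.513 to 8.77 CPM in controls and 38.8, 14.9 and 15.0 CPM in treated cells (2.96, SE 0.61), with 30.6 to 59.3 CPM in the libraries left out. Psmc2, an ATPase of the proteasome cap, differed by 1.01 (SE 0.21). For Ackr2, a decoy receptor of chemokines, light zone treated replicate 1 had 0.319 CPM, inside the range of its controls (0.0587 to 0.373 CPM), whereas the other treated libraries had 39.3 and 26.04 CPM. For Rfx2, a factor of cilium genes, the same library had 1.06 CPM, above its controls (0.529 to 0.663 CPM) but far below the 24.8 and 20.2 CPM of the other treated libraries.

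The 12 lower genes chosen in the same way were 1700001G11Rik, Cpsf7, Hspb6, Zzz3, Myzap, Zfp715, Ranbp6, Ahcy, Phf13, Ifi27l2a, Loxl2 and Stx12. All 12 were called by DESeq2, with adjusted p-values of 5.41e-11 for 1700001G11Rik, 9.91e-12 for Hspb6, 2.55e-10 for Myzap, 6.16e-10 for Zfp715, 1.04e-16 for Ranbp6, 2.33e-08 for Phf13 and 5.28e-06 for Stx12, and those of the others beside their values. Hspb6, 1700001G11Rik, Phf13 and Ranbp6 were almost without counts in treated cells. Hspb6, a small heat shock protein, had 80.4, 8.20 and 38.3 CPM in dark zone controls and 45.9, 21.8 and 17.9 CPM in light zone controls, and in the treated libraries 0, 0 and 2 counts, under the 3-count floor, against 3966 counts in the controls together. The non-coding 1700001G11Rik had 2398 counts in the controls and 2 in the treated libraries, Phf13 2021 and 3, and Ranbp6 2210 and 9. All 4 genes were present in the libraries left out, with 11.7 to 12.3 CPM of Hspb6, 1.92 to 3.23 CPM of 1700001G11Rik, 12.4 to 14.9 CPM of Phf13 and 5.47 to 5.86 CPM of Ranbp6.

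Cpsf7, a subunit of a pre-mRNA cleavage factor, had 24.03 to 115 CPM in controls and 3.19, 2.55 and 1.85 CPM in treated cells (log2 difference -3.88, SE 0.61, adjusted p = 7.4e-11 in DESeq2). Zzz3, a subunit of the ATAC histone acetyltransferase complex, had 25.5 to 33.5 CPM in controls, a narrow range, and 4.55, 7.65 and 4.91 CPM in treated cells (-2.43, SE 0.41, adjusted p = 3.76e-14 in DESeq2). Zzz3 had 18.6 to 21.9 CPM in the libraries left out, nearer to the controls. Ahcy, which breaks down S-adenosylhomocysteine and so sustains methylation, had 9.65 to 32.7 CPM in controls and 2.08, 0.744 and 1.67 CPM in treated cells (-3.63, SE 0.69, adjusted p = 4.39e-08 in DESeq2), but 45.7 to 69.9 CPM in the libraries left out, so that the difference over all 12 libraries had the other sign (0.48, SE 1.04). Loxl2, a lysyl oxidase, had 450 to 998 CPM in controls and 204, 421 and 277 CPM in treated cells (-1.21, SE 0.25, adjusted p = 0.000393 in DESeq2), and was lower still, at 16.9 to 55.4 CPM, in the libraries left out. In the annotation used (GENCODE M21), exons of Gcfc2 shared 1962 bases with exons of Mrpl19, and Ska3, 1700001G11Rik, Cpsf7, Hspb6 and Zzz3 shared 12 to 263 bases with neighbouring genes, so reads from those bases may belong to either gene.

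**Figure D2:**
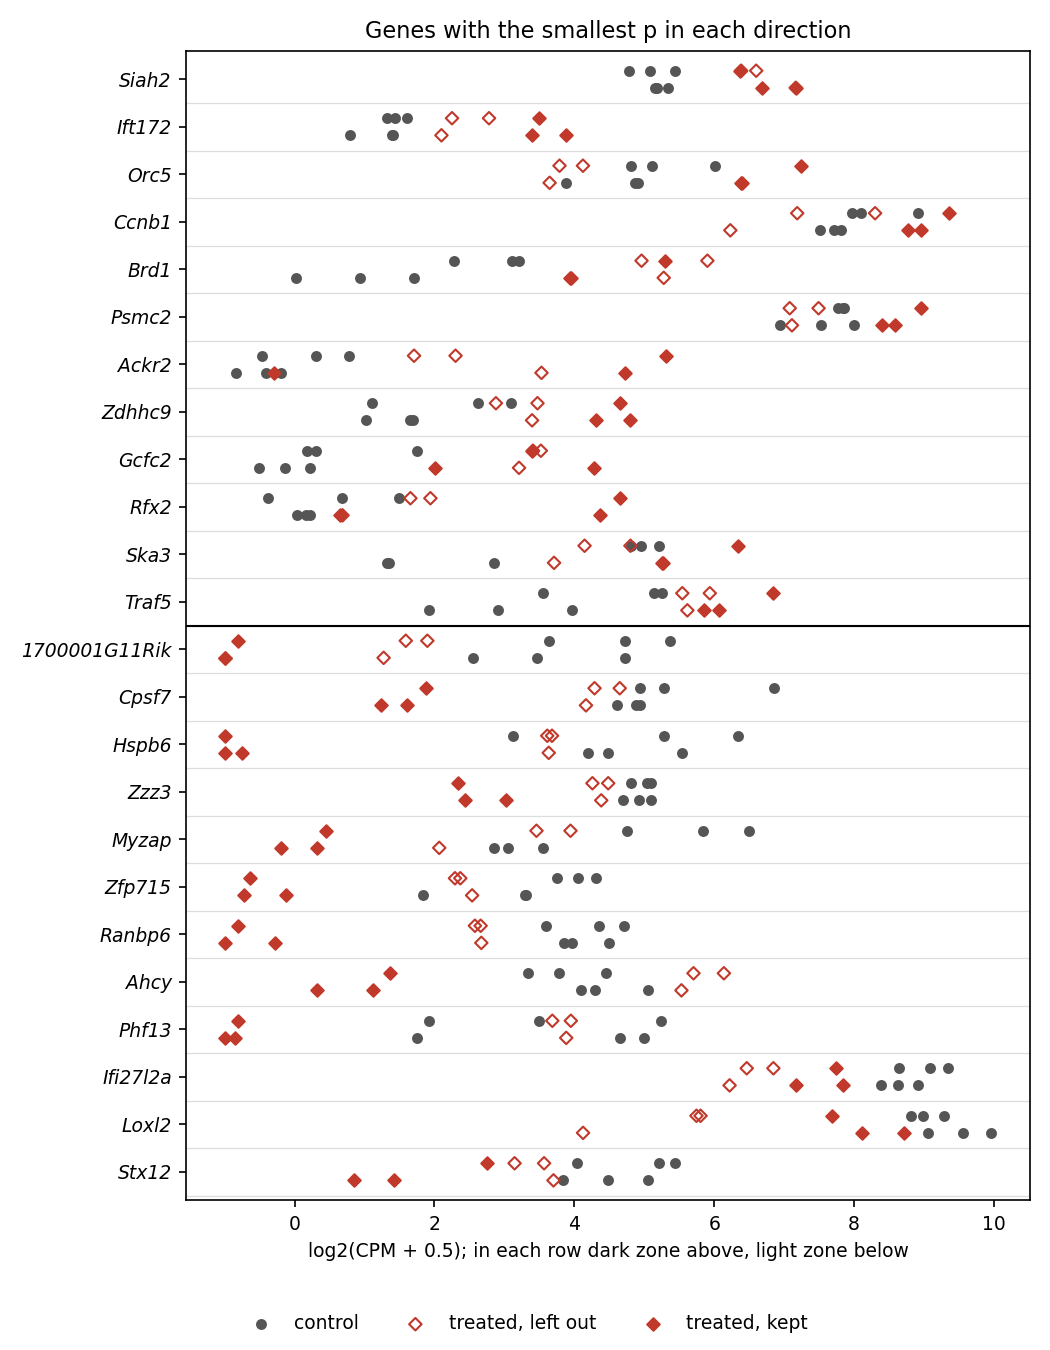
The 12 genes with the smallest p higher (above the black line) and lower (below it) in treated cells, as log2(CPM + 0.5) in each library, with the dark zone above the light zone in each row. Filled diamonds (treated, kept) lie apart from the grey circles (control) in nearly every row, which is how the genes were chosen; the open diamonds (treated, left out) lie with either group depending on the gene.

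Genes of the cell division cycle were mostly higher in treated cells. Of 28 genes of the G2 and M phases, 21 were higher and 7 lower, with a median log2 difference of 0.28, beside -0.02 over all genes tested; 4 were higher at an unadjusted p of 0.05 (3.23% of all genes were) and none lower, and 4 lay above the controls of both zones (4.16% of all genes did). Without light zone treated replicate 3 the median was 0.04, and without light zone control replicate 3 0.18. Cdk1, the kinase partner of cyclin B1, had 368 to 407 CPM in dark zone controls and 573 CPM in the treated library, and 144, 310 and 393 CPM in light zone controls against 488 and 691 CPM (0.88, SE 0.30, unadjusted p = 0.0193). Top2a, the topoisomerase that untangles chromosomes, had 160 to 276 CPM in controls and 260, 291 and 461 CPM in treated cells (0.57, SE 0.21). Of 31 genes of DNA replication, 24 were higher and 7 lower (median 0.30, or 0.17 without light zone treated replicate 3). At an unadjusted p of 0.05, 6 were higher (3.23% of all genes were) and none lower. In 2 the treated libraries lay above the controls of both zones (4.16% of all genes did). Cdc6, which loads the replicative helicase, differed by 1.19 (SE 0.40), Rrm2, a subunit of ribonucleotide reductase, by 0.80 (SE 0.29), and Rfc3, of the clamp loader, by 0.48 (SE 0.16). The libraries were not alike: relative to the controls of its zone, the median of the G2 and M genes was 0.27 in the dark zone treated library and 0.58 in light zone replicate 3 but -0.15 in light zone replicate 1, inside the control range of -0.24 to 0.27.

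Promoters of many G2 and M genes carry CCAAT boxes and a cell cycle homology region, bound by NF-Y and by the DREAM and MuvB complexes. Ccnb1 and Cdk1, whose products act as one kinase and both of which were higher, are shown from 250 bases before to 50 after the RefSeq start (GRCm38.p6, minus strand for both, chr13:100786437-100786736 for Ccnb1 and chr10:69352863-69353162 for Cdk1). Capitals mark CCAAT and TTTGAA, searched on both strands.
Ccnb1: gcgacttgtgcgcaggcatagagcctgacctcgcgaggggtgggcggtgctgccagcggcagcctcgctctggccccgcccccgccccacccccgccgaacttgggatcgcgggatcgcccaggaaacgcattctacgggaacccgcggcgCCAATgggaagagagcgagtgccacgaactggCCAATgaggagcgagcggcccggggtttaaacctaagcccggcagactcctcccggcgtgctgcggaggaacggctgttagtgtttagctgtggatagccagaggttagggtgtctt
Cdk1: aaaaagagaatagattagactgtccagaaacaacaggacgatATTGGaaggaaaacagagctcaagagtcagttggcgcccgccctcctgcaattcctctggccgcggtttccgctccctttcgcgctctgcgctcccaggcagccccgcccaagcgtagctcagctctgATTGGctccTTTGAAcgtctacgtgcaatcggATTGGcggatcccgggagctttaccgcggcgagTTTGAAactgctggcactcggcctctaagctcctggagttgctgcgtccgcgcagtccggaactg
The Ccnb1 window holds 2 CCAAT matches and 0 TTTGAA matches, and the Cdk1 window 3 and 2. Among the 23 of 28 list members with an entry, 20 hold CCAAT and 16 TTTGAA, against 37.4% and 17.9% of all 32851 promoters of that length. These matches are descriptions of sequence. The Irf4 promoter has an entry and holds 0 matches to the kB consensus, which 8.46% of promoters hold; Siah2, Ifi27l2a and Trim33 are named only.

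Genes of protein synthesis and of respiration were mostly lower. Of 82 genes of cytosolic ribosomal proteins, 74 were lower and 8 higher, with a median log2 difference of -0.33; 25 were lower at an unadjusted p of 0.05, beside 4.23% of all genes, and none higher, and in 14 the treated libraries lay below the controls of both zones, beside 3.83% of all genes. Rps12 had 348, 319 and 231 CPM in dark zone controls and 148 CPM in the treated library, and 389, 401 and 246 CPM in light zone controls against 223 and 155 CPM (-0.92, SE 0.23, adjusted p = 0.0151 in DESeq2). Rps4x differed by -0.44 (SE 0.14) and Rpl12 by -0.58 (SE 0.19). Many ribosomal protein genes have processed copies elsewhere in the genome, which could take part of their reads.

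Of 79 genes of oxidative phosphorylation, 60 were lower and 19 higher (median -0.22, or -0.14 without the dark zone treated library). At an unadjusted p of 0.05, 15 were lower (4.23% of all genes were) and none higher. The treated libraries lay below the controls of both zones in 10 and above them in 1 (3.83% and 4.16% of all genes). Cox7b, a subunit of cytochrome c oxidase, had 1023 to 1329 CPM in dark zone controls and 702 CPM in the treated library, and 1014 to 1314 CPM in light zone controls against 957 and 838 CPM (-0.53, SE 0.14, adjusted p = 0.0516 in DESeq2). Ndufa6 of complex I differed by -0.50 (SE 0.17) and Uqcr11 of complex III by -0.38 (SE 0.13). Of 77 mitochondrial ribosomal protein genes, 51 were lower and 26 higher (median -0.17); Mrpl47 had 93.5 to 136 CPM in controls and 63.6, 83.5 and 60.7 CPM in treated cells (-0.82, SE 0.19, adjusted p = 0.000251 in DESeq2), though its exons share 1068 bases with neighbouring genes, and Mrps33 differed by -0.56 (SE 0.15), whereas Mrps26 was higher, at 1.38 (SE 0.37); DESeq2 gave Mrps33 an adjusted p of 0.0447 and Mrps26 0.0231. Of 22 genes of glycolysis, 14 were lower and 8 higher (median -0.26), and of 26 of the TCA cycle and fatty acid oxidation, 18 were higher (median 0.16).

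The treated libraries kept were not alike in these lists. Relative to the control mean of their zone, dark zone replicate 3 (-0.41) and light zone replicate 3 (-0.40) lay below their controls for the ribosomal proteins. Light zone replicate 1 (-0.09) lay inside the range of its controls, -0.17 to 0.10. For the mitochondrial ribosomal proteins the same 3 libraries lay at -0.21, -0.15 and 0.006. Dark zone control replicate 3 itself lay at -0.30 for the ribosomal proteins and -0.21 for oxidative phosphorylation relative to its zone's control mean, and the treated libraries kept lay at -0.41 to -0.09 and -0.29 to -0.05. The libraries left out were far lower, at -1.19 to -0.62 for the ribosomal proteins and -2.04 to -1.69 for oxidative phosphorylation. With all 12 libraries the medians were -0.60 and -0.83, and that of glycolysis, -0.26 in the 9 libraries, was 0.62.

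**Figure D3:**
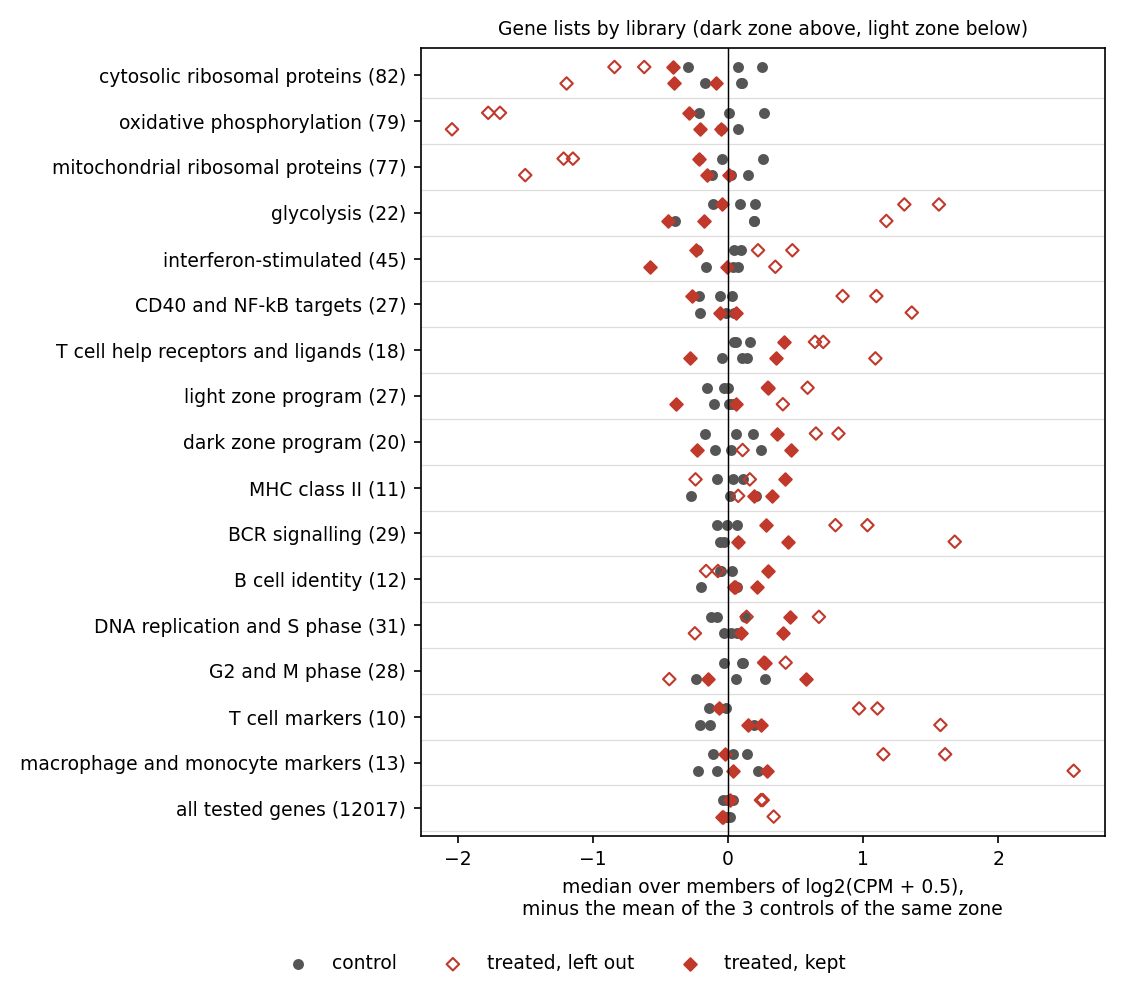
Median over the members of each gene list (number tested in brackets) of log2(CPM + 0.5) in a library minus the mean of the 3 controls of its zone. The treated libraries kept (filled diamonds) lie between -0.58 and 0.58 in the lists plotted, whereas the libraries left out (open diamonds) reach -2.04 for oxidative phosphorylation and 2.56 for macrophage markers.

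No gene of the blocked pathway passed the edgeR test, and DESeq2 called 1 of the CD40 and NF-kB targets, Irf4, described above. Cd40 had 32.1 to 94.7 CPM in controls and 53.1, 99.6 and 90.2 CPM in treated cells (log2 difference 0.25, SE 0.30). Cd86, a ligand of CD28 and a target of CTLA4-Ig, had 9.86, 27.3 and 51.3 CPM in dark zone controls and 94.2 CPM in the treated library, but 209, 153 and 172 CPM in light zone controls and 218 and 109 CPM in treated cells; the difference was 0.66 (SE 0.56) over both zones and -0.12 in the light zone. Cd80 was too low to test, at 0 to 0.371 CPM in controls, and Icosl, the ligand of ICOS on T cells, differed by -0.74 (SE 1.91). Of 27 targets of CD40 and NF-kB, 12 were higher and 15 lower (median -0.10). At an unadjusted p of 0.05, 1 was higher, Nfkbia, and 1 lower, Irf4 (3.23% and 4.23% of all genes). The median was -0.38 without light zone treated replicate 3, -0.21 without dark zone control replicate 1 and 0.51 with all 12 libraries. Nfkbia, the inhibitor of NF-kB and itself a target, differed by 0.62 (SE 0.24), and Tnfaip3, another inhibitor, by -2.87 (SE 1.28, unadjusted p = 0.0558). Of 18 receptors and ligands of T cell help, 11 were higher and 7 lower (median 0.20, but 0.06 without light zone treated replicate 3 and 0.39 without light zone treated replicate 1); Il21r, the receptor of the T helper cytokine IL-21, had 7.58 to 22.4 CPM in controls and 29.3, 24.1 and 79.2 CPM in treated cells, above every control (1.68, SE 0.57, unadjusted p = 0.0186), and 125 to 238 CPM in the libraries left out. Ly9 of the SLAM family differed by 1.94 (SE 0.95).

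The programs of both zones held genes of either direction. Of 27 light zone genes 14 were higher and 13 lower (median 0.02), and of 20 dark zone genes 15 were higher and 5 lower (median 0.32). The dark zone median was 0.05 without light zone treated replicate 3, 0.10 without dark zone control replicate 2 and 0.17 without the dark zone treated library, and the light zone median lay between -0.12 and 0.18 with 1 library left out. Cd83 differed by 0.33 (SE 0.48), Cxcr4, the CXCL12 receptor of dark zone cells, by 0.33 (SE 0.59), and Cxcr5, the follicle homing receptor, by -0.57 (SE 0.64). Cxcr4 had 146 CPM in the dark zone treated library, above the 14.6 to 82.0 CPM of its controls, and 28.9 and 17.8 CPM in the light zone treated libraries, below the 30.7 to 35.8 CPM there; the interaction had an unadjusted p of 0.138. Among the regulators of the germinal center state, the differences were -0.62 (SE 0.50) for Bcl6, -0.49 (SE 0.31) for S1pr2, -0.01 (SE 0.20) for Fas, -0.41 (SE 0.31) for Bach2, 0.22 (SE 0.49) for Foxo1, 0.32 (SE 1.05) for Pax5 and 0.46 (SE 0.47) for Ezh2. Gcsam and Mef2b, 2 further germinal center genes, had 0.34 (SE 0.19) and 0.52 (SE 0.25), Spib 0.84 (SE 0.37) and Foxp1 0.45 (SE 0.21). Id3, an inhibitor of E proteins, had 227 to 334 CPM in controls and 491, 459 and 286 CPM in treated cells (0.58, SE 0.19).

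Of the genes that mark positive selection and the plasma cell fate, Myc differed by -0.02 (SE 0.58), Batf by -0.81 (SE 0.47), Ccnd2 by 0.81 (SE 1.0), Ccnd3, the cyclin of dark zone expansion, by 0.67 (SE 0.74), Prdm1 by -2.73 (SE 1.77) and Xbp1 by 0.86 (SE 0.62). Prdm1 was low and uneven in both groups, with 0.0901 to 35.8 CPM in controls and 0.286 to 4.68 CPM in treated cells. Jchain, which joins IgM and IgA into polymers, had 6189 to 10130 CPM in controls and 5546, 7233 and 8022 CPM in treated cells (-0.35, SE 0.14), against 990 to 1923 CPM in the libraries left out. Ell2, an elongation factor of antibody-secreting cells, had 21.8 to 60.0 CPM in controls and 16.5 to 22.6 CPM in treated cells (-1.20, SE 0.41, adjusted p = 0.0502 in DESeq2). Over the 15 plasma cell genes, 8 were higher and 7 lower (median 0.01; -0.50 in the dark zone and 0.18 in the light zone). Irf4, Jchain and Ell2 were lower at an unadjusted p of 0.05 (4.23% of all genes were) and none higher. Jchain and Ell2 lay below the controls of both zones (3.83% of all genes did). The median was 0.31 without the dark zone treated library and -0.42 without light zone treated replicate 3.

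**Figure D4:**
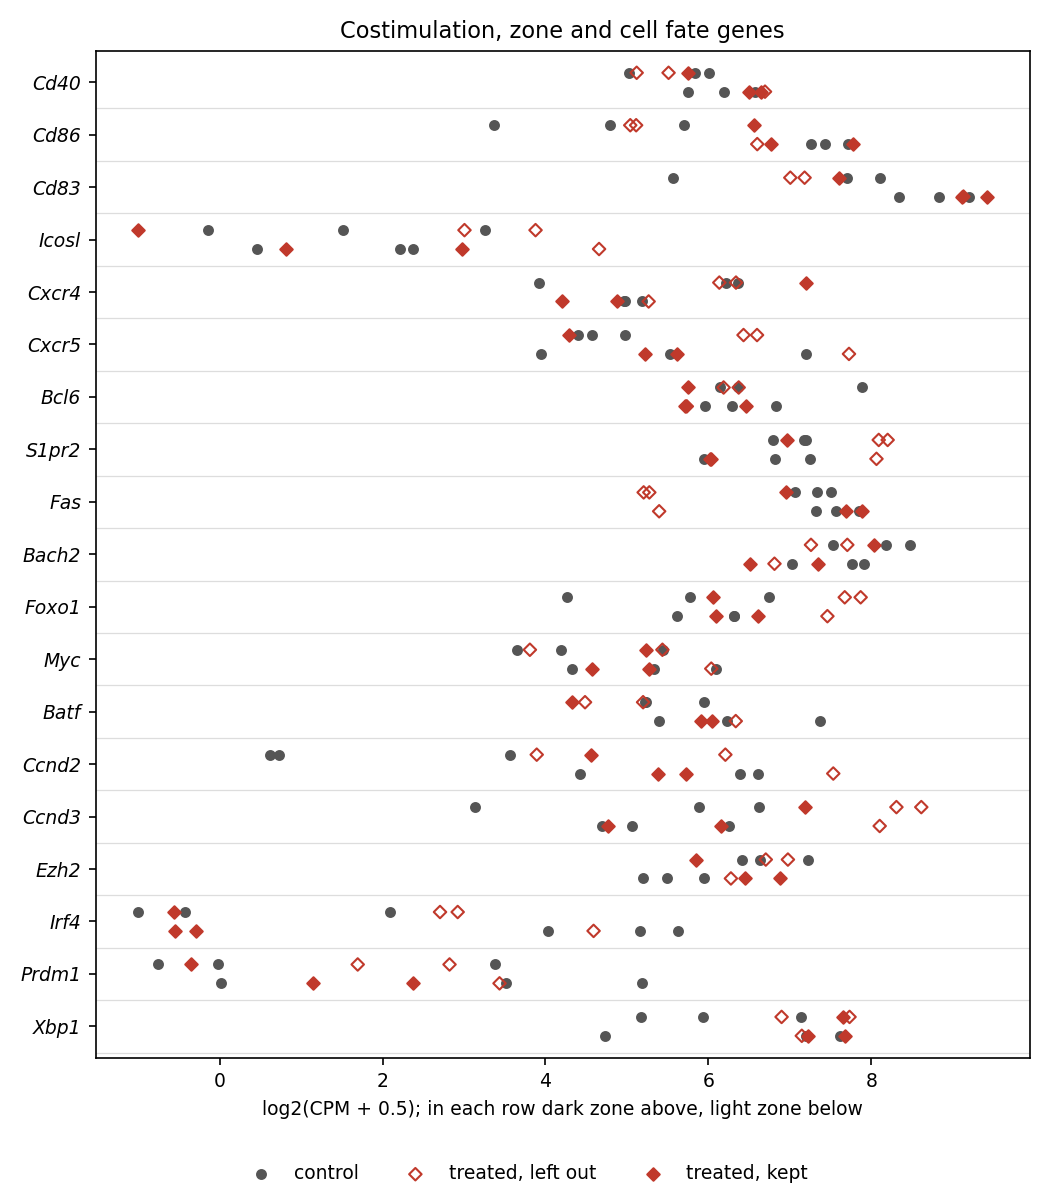
Genes of costimulation, the zones and cell fate as log2(CPM + 0.5) in each library, dark zone above light zone in each row. Treated libraries kept (filled diamonds) lie among the controls (grey circles) in most rows; the light zone row of Irf4 shows both filled diamonds far to the left of the 3 controls.

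Interferon-stimulated genes varied from gene to gene. Of 45, 20 were higher and 25 lower, with a median of -0.37; 2 were higher and 6 lower at an unadjusted p of 0.05 (3.23% and 4.23% of all genes), and 3 lay above and 6 below the controls of both zones (4.16% and 3.83% of all genes). The median was -0.59 without light zone treated replicate 1, -0.22 without the dark zone treated library and 0.27 with all 12 libraries. Ifih1, the RNA sensor MDA5, had at most 0.371 CPM in the 6 controls and 20.6 and 14.6 CPM in dark zone treated replicate 3 and light zone treated replicate 1, but 0.232 CPM in light zone replicate 3 (adjusted p = 0.00539 in DESeq2). Ifi27 and Ifi27l2a, described above, were lower in every treated library. Of 8 interferon regulatory factors, 7 were lower and 1 higher (median -0.59), and the median of the list was -1.45 in the light zone fit and 0.04 in the dark zone. It was -0.19 without light zone treated replicate 1, -0.31 without light zone control replicate 2 and 0.21 with all 12 libraries.

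Genes of antigen presentation on MHC class II and of B cell receptor signalling were mostly higher by small amounts. Of 11 MHC class II genes, 10 were higher (median 0.26, or 0.40 without light zone treated replicate 3 and 0.17 without light zone control replicate 1): H2-Ab1 had 576 to 840 CPM in dark zone controls and 953 CPM in the treated library, and 814 to 1016 CPM in light zone controls against 1207 and 1370 CPM (0.46, SE 0.14, unadjusted p = 0.00995), and H2-DMb1 differed by 0.56 (SE 0.22). On the MHC class I side, 10 of 16 genes were lower (median -0.25, but 0.85 with all 12 libraries), with B2m at -0.34 (SE 0.13) and Nlrc5, the activator of class I genes, at -1.61 (SE 0.78). Of 29 genes of B cell receptor signalling, 20 were higher and 9 lower (median 0.28, or 0.13 without the dark zone treated library), none at an unadjusted p of 0.05; Btk, a kinase of the receptor, differed by 1.5 (SE 0.72), Cd79b, a signalling chain of the receptor, by 0.36 (SE 0.18) and Ptprc by -0.59 (SE 0.28). Of 12 B cell identity genes, 11 were higher (median 0.23), with Cd37 at 0.75 (SE 0.24). Among 14 BCL2 family genes, 7 were higher and 7 lower; the survival factor Mcl1 had 81.7 to 244 CPM in controls and 90.3, 76.2 and 83.5 CPM in treated cells (-1.05, SE 0.37), and the death agonist Bid was higher by 0.83 (SE 0.30).

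Among 30 genes of ribosome biogenesis and MYC targets, 12 were higher and 18 lower (median -0.10, but 0.77 with all 12 libraries); Nop58 differed by 0.51 (SE 0.23) and Bop1 by -3.83 (SE 1.35, adjusted p = 0.0231 in DESeq2), where the libraries left out held 61.3 to 98.7 CPM of Bop1 against 0.406 to 24.7 CPM in controls. Of 37 proteasome genes, 21 were higher (median 0.09, but -0.11 with all 12 libraries), among them Psmc2, and Psmd12 at 0.83 (SE 0.29). Of 23 SIAH and TRIM ubiquitin ligases, 15 were higher and 8 lower (median 0.35, or 0.12 without light zone control replicate 1); Trim14 had 1.47 to 8.37 CPM in controls and 15.8 to 20.7 CPM in treated cells (1.68, SE 0.59). Exons of Trim14 share 1356 bases with exons of Nans, so reads from those bases may belong to either gene. The same holds for Bid (628 bases), Ccnd3 (361 bases) and Foxp1 (300 bases), and for shorter stretches in other genes named here.

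The effect of treatment was compared between zones with an interaction term. With 1 treated library in the dark zone, this test rests on the assumption that it varies like the others. The number of genes called for this term is therefore not given. For Siah2 the difference was 1.25 in the dark and 1.73 in the light zone, for Ifi27l2a -1.32 and -1.12, and for Trim33 -1.30 and -1.68.

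Defining markers of macrophages and of T cells were mostly near 0 in the 9 libraries. The macrophage genes Lyz2, C1qa and C1qb had at most 0.47 CPM in the controls and in the treated libraries kept, and Cd4 and Cd8a at most 0.143 CPM, whereas Cd3g had up to 22.8 CPM in controls and 25.6 CPM in treated cells and Adgre1 3.44 to 6.13 and 3.88 to 4.77 CPM. The summed level of 16 T cell markers was 88.4 to 209 CPM in controls and 94.6 to 224 CPM in treated cells, with no marker at 0 in all treated libraries kept. Of these 16, Lck alone had 71.1 to 176.5 CPM in controls and 79.6 to 187.6 CPM in treated cells. All 10 T cell markers tested had a log2 difference above 0 (median 0.34), none at an unadjusted p of 0.05 and none apart from the controls in both zones; the median was 0.84 without light zone control replicate 3 and 0.20 without light zone control replicate 1. The summed level of 17 macrophage and monocyte markers was 229 to 513 CPM in controls and 236 to 322 CPM in treated cells; of 13 tested, 8 were higher and 5 lower (median 0.29). Of these 17, Apoe alone had 210 to 471 CPM in controls and 210 to 224 CPM in treated cells (-0.92, SE 0.24, adjusted p = 0.0274 in DESeq2). Of 4 neutrophil markers tested, 1 was higher and 3 lower. Their median was -1.89, but -0.96 without the dark zone treated library and 2.93 with all 12 libraries. Cxcr2, a member of the neutrophil list, differed by -1.11 (SE 0.43). The erythroid genes reached 1237 CPM in sum in 1 control library and 5.05 to 36.9 CPM in the treated libraries kept. Fewer cells of a type and less RNA per cell cannot be told apart in such bulk libraries, and the part of these markers in the differences above was not tested.

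With the 3 libraries put back, some genes had another direction. Among the genes whose log2 difference moved most between the fits, Nfkbil1, Zswim1, Dolk, B3gnt7 and Naif1 had 0 counts in all 3 treated libraries kept and at most 6.87 CPM in controls, but 5.75 to 20.9 CPM in the libraries left out. In the other direction, Bag2, a cochaperone of HSP70, had 20.3 to 32.4 CPM in the treated libraries kept and 9.45 to 17.9 CPM in those left out, against 0 to 26 CPM in controls. Zfp458, Rab32, Zfp979 and Klhl11, the other 4 genes of that direction, were each uneven within the treated libraries kept, with a range of 0 to 42.3 CPM in Rab32.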

How the data were processed

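Libraries were made with the SMART-Seq v4 Ultra and Nextera XT kits, which do not mark strand, per the labels' protocols; reads were processed with BWA and the mm10 build, per the submitters' processing notes, with a counting program and annotation not given in the sources used here. Each library's deposited file lists unscaled expected counts for 12212 gene symbols. Blank cells were read as 0, and values midway between whole numbers (724 to 1301 a library) were rounded up. Genes were kept by filterByExpr (minimum count 10, minimum total 15) and tested in edgeR 4.0.16 (TMM, robust quasi-likelihood, terms for zone and treatment) over all 12017 genes, with Benjamini-Hochberg adjustment; the step was tested on simulated data. DESeq2 1.42.0, limma 3.58.1 (R 4.3.3), other scalings and filters, and leaving out each library were alternatives. SE are those of the fitted log2 difference. List levels use a pseudocount of 0.5 CPM. Named genes were the 4 described first, up to 12 per direction with the smallest p, a difference of at least 2-fold and a mean of at least 10 CPM, up to 3 per list, a fixed set of zone, costimulation and fate genes, the relatives of the 4, and up to 5 per direction that moved most between the fits on 9 and 12 libraries. Some genes of these sets are not reported here. The members and the lists were chosen with earlier results of these data known. Of the symbols, 11958 were found in GENCODE M21, which gave the mm10 coordinates; promoters come from RefSeq. No pair of libraries looked like one library deposited under separate names: at most 0.491% of symbols had equal counts above 20.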

Additional observations from a re-analysis of the deposited data

Results flagged for a closer look

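In the 3 treated libraries left out, 10 of the cell type markers reported here exceeded all 6 controls in every library. Their lowest level in those libraries was 12.2 CPM for Lyz2, 7.19 for C1qa, 9.87 for C1qb and 6.77 for Csf1r, all macrophage genes, 2.33 for Cd3e, 0.818 for Cd4 and 0.864 for Cd8a, which mark T cells, and 0.0692 for S100a8, a neutrophil gene, which is under the 3-count floor. The B cell genes S1pr2 and Foxo1 did so as well, with at least 267 and 176 CPM. Other markers of the same cells did not: Adgre1 had 2.2 to 8.56 CPM there against 3.44 to 6.13 CPM in controls, and Cd3g 1.41 to 9.39 against 0 to 22.8 CPM. Over all tested genes the median level in these libraries was also above the control mean of their zone, by 0.24 to 0.34 in log2. The share of all genes that exceeded all 6 controls in this way was not computed. In the treated libraries kept the highest levels were 0.319 CPM of Lyz2, 0.322 of C1qa, 0.0532 of C1qb and 1.17 of Csf1r. Whether the other differences of the libraries left out go with these markers was not tested.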

How the results depend on the processing

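For the treatment effect, every setting run in edgeR or limma-voom gave 0 called genes and DESeq2 called 296. The interaction was refitted in edgeR with library totals, DESeq2 size factors, no filter, the 10 CPM minimum, midway values rounded down and 8 of the 9 libraries left out in turn, each with 0 called, and DESeq2 called 239. For the treatment effect, a replicate block (the replicate number as a term) gave 0 called genes in edgeR, with a smallest adjusted p of 0.876. A block with an estimated correlation of 0.051 also gave 0. Control pairs of the same number correlated at 0.030, -0.004 and 0.114, and pairs of unlike numbers at -0.076 to 0.040. Such correlations cannot settle whether libraries of the same number come from the same mouse, which the labels do not say. The main fit has no term for pairs. Genes not overlapping within zones numbered 295 higher with a minimum mean of 10 CPM (332 lower). The number of genes that pass this minimum is not given here. These counts therefore cannot be set against the 500 and 460 found among 12017 genes. With 1 library left out, which loosens the requirement, genes not overlapping numbered 595 to 1320 higher and 555 to 1349 lower. Of 2146 alternative log2 differences of named genes, 2060 kept direction and side of the threshold, 34 passed it, all in DESeq2, and 52 changed sign. The cause of the sign changes was not tested. These counts leave out the genes chosen for moving most between the fits on 9 and 12 libraries. Of those, Nfkbil1 (4.80), Zswim1 (3.53), Dolk (2.86), B3gnt7 (5.02) and Naif1 (4.54) changed sign with all 12 libraries. In the 9 libraries they had -7.23 to -5.06. Among the genes counted, the sign changed with all 12 libraries for Ahcy (0.48), Id3 (-0.062), Gcsam (-0.39), Cd79b (-0.0091), Bop1 (1.98), Rfc3 (-0.26), Mcl1 (0.059), Icosl (1.32), Cxcr5 (0.97), S1pr2 (0.53), Myc (0.17), Irf8 (1.30) and Trim28 (0.66). In the light zone alone it changed for Cd86 (-0.12), Icosl (0.41), Cxcr4 (-0.47), Fas (0.20), Pax5 (-1.53) and Ccnd2 (-0.52). Fas was 0.0056 and Myc 0.0016 with library totals, Fas 0.013 and Myc 0.24 in limma-voom with weights, Fas 0.10 with no zone term, Fas 0.044 and Pax5 -0.032 with the replicate number as a block, and Fas 0.00745, Myc 0.12 and Irf8 0.0028 with the estimated correlation of the block. Leaving out 1 library gave ranges across 0 for Cd86 (-0.12 to 1.07), Icosl (-2.88 to 0.42), Cxcr4 (-0.48 to 0.70), Cxcr5 (-0.85 to 0.11), Fas (-0.13 to 0.20), Myc (-0.46 to 0.28), Irf8 (-0.13 to 0.11), Siah1b (-2.68 to 0.27), Trim24 (-1.60 to 0.47), Trim28 (-1.35 to 0.27), Pax5 (-1.54 to 0.96) and Ccnd2 (-0.52 to 1.55). Other scalings moved the median of all genes by at most 0.011. With 1 treated library in the dark zone, leaving it out leaves a comparison within the light zone only, and the interaction then has no value. Depth limits statements on genes near 3 counts a library.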
